A study of Mus musculus and Homo sapiens with 22 samples.

Results

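The m6A sites of 8 genes that set the electrical behaviour of heart muscle were followed through the site lists of mouse heart. The genes were chosen by name, but with earlier results of these data known. Comparisons of them with all genes are therefore descriptions and no tests. They were the sodium channel subunit gene Scn4b and the potassium channel genes Kcnq1, Kcnh2, Kcnd2, Kcnj2 and Kcnj3. The others were the pacemaker channel gene Hcn2 and the gap junction gene Gja1. All 8 had at least 1 site in exons in the list from 1000 ng of heart RNA. Together they held 83 of the 44054 sites of that list that lay in exons of 1 gene only, and 8 of the 8512 genes with such a site. Over all 5 mouse lists used, 9860 genes had an exon site.

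N6-methyladenosine (m6A) was mapped with miCLIP2, in which RNA fragments bound by an m6A antibody are crosslinked with UV light and the modified base is read from the point where reverse transcription ends. The m6Aboost classifier then separates m6A sites from background peaks. The heart samples were 4 libraries of purchased mouse heart RNA, 1 at each poly(A)+ RNA input (1000, 300, 100 and 50 ng), with no treatment or genetic change named. The other samples were mouse embryonic stem cells (mESCs) of wild type (WT), whose list combines 3 biological replicates (4 libraries), and RNA-seq of 3 WT and 3 Mettl3 knockout (KO) mESC libraries, grown with serum and LIF. The mESCs were not treated. For its RT-PCR the paper grew WT and KO mESCs on a layer of irradiated mouse fibroblasts, which was depleted before RNA was isolated. Its methods do not say whether the RNA-seq cells had such a layer. Mettl3 encodes the catalytic subunit of the m6A methyltransferase. Strain, age and number of animals behind the heart RNA are not given in the sources used here. The paper gives a wide range of truncation events over the heart libraries, but read depth was not used here. The heart lists have no replicate. Shares are therefore given with 95% Wilson intervals, which cover counting error only.

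The methyltransferase complex marks adenosines mostly within the sequence DRACH (D is A, G or T, R is A or G, H is A, C or T), and the marks are known to gather in long exons and around stop codons and to be scarce near exon junctions. The channels studied here carry the currents that shape the cardiac action potential. Sodium current starts it, delayed rectifier and transient outward potassium currents end it, inward rectifiers hold the resting potential, pacemaker channels drive slow depolarisation, and connexins pass the current from cell to cell. m6A sites say where a transcript is marked and not how much of it there is. RNA levels of the heart were not measured, and the miCLIP2 signal depends on them.

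The windows around the leading sites are shown first, because the results return to these positions. Each has 21 nt of the GRCm38 genome read 5′ to 3′ on the strand of the gene, with the 5 nt centred on the site in capitals. They are the site of highest deposited score of each gene in the 1000 ng list, and the further sites that were also in the 100 ng list.
Scn4b, chr9:45150588-45150608, plus strand, 3′ UTR: cttggcccAAACTgttctttc
Kcnq1, chr7:143426080-143426100, plus strand, coding: cgaacaacTGACTgtgcccca
Kcnh2, chr5:24325690-24325710, minus strand, coding: cctcacatGGACTcacacatc
Kcnd2, chr6:21726108-21726128, plus strand, coding: acacaaaaAGACTttccgcat
Kcnj2, chr11:111072347-111072367, plus strand, coding: gagaaatgAGACTcttgtctt
Kcnj3, chr2:55595027-55595047, plus strand, coding: gcaaagaaAGACAcaattctg
Hcn2, chr10:79735454-79735474, plus strand, coding: gaccgcagGGACTcagcctcg
Gja1, chr10:56388592-56388612, plus strand, coding: ctggacacGAACTccagccct
Gja1, chr10:56388126-56388146, plus strand, coding: caccaggtGGACTgcttcctc
Gja1, chr10:56388586-56388606, plus strand, coding: ttgctgctGGACAcgaactcc
Gja1, chr10:56390143-56390163, plus strand, 3′ UTR: atttatttGAACTgtaagcta
All 11 windows lay inside a single exon, and each of their sites matched DRACH. Of the 8 leading sites, 7 lay in coding sequence, and that of Scn4b lay in the 3′ UTR.

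The number of sites differed widely between the genes. Kcnj3 had 18 exon sites in the 1000 ng list, Kcnj2 and Gja1 had 16 each, Kcnd2 had 11, Hcn2 had 8, Kcnh2 had 7, Scn4b had 6 and Kcnq1 had 1. Per kilobase of transcript, Gja1 came first with 5.03 sites, followed by Kcnj3 with 3.45 and Kcnj2 with 2.94, and Kcnq1 came last with 0.33. Among all genes with a site, 4.28% had as many sites as Gja1 and Kcnj2 or more, and 2.87% had as many as Kcnj3 or more. Kcnq1 thus stood at the low end with the many genes that had a single site.

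**Figure D1:**
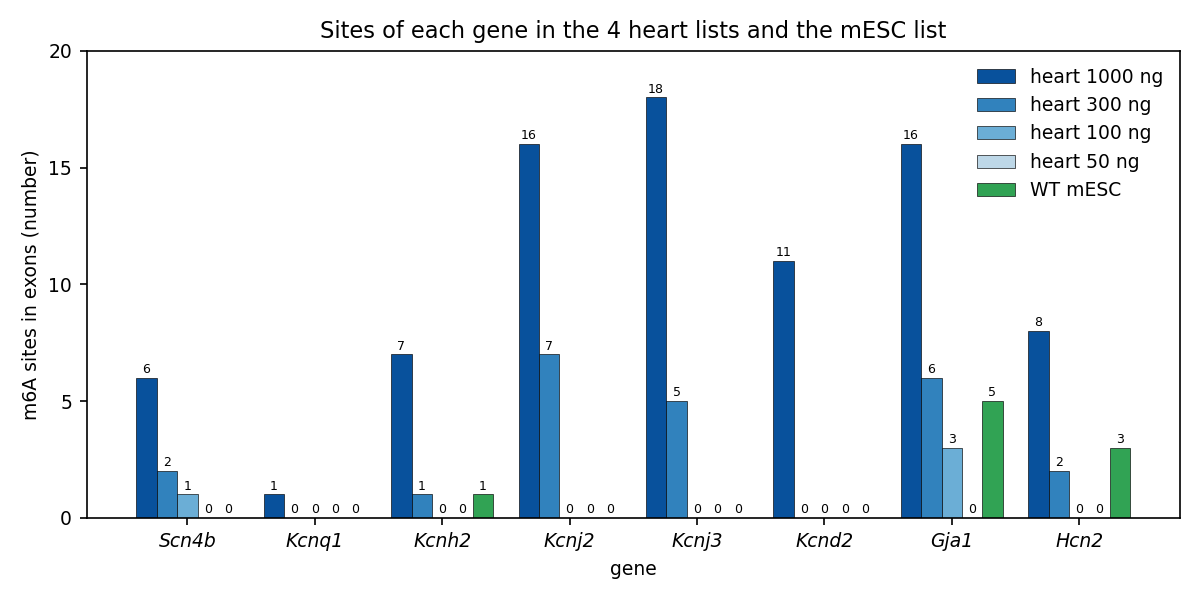
Number of m6A sites in exons (vertical axis) of each of the 8 genes (horizontal axis) in the 4 heart lists and the WT mESC list, 1 bar per list with its value on top. Sites fall from 83 at 1000 ng to 23 at 300 ng, 4 at 100 ng and 0 at 50 ng, and only Kcnh2, Gja1 and Hcn2 have sites in mESCs.

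Scn4b encodes an auxiliary subunit of voltage-gated sodium channels. The gene (ENSMUSG00000046480.6) lies on chromosome 9 from 45138395 to 45154152 on the plus strand. All 6 of its sites were in the 3′ UTR, within the last exon of 3742 nt, whereas none lay in its coding sequence of 687 nt. Of its sites, 3 stood close together, at 94, 117 and 167 nt after the end of the stop codon, with rank percentiles of 86.7, 50.5 and 34.1. A rank percentile is the place of a site by deposited score within its list, with 100 for the highest score. The others lay further down the 3′ UTR, the most distant at 2961 nt, and had percentiles from 9.5 to 73.5. The first site after the stop codon was also in the 300 ng and the 100 ng lists.

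Kcnq1 and Kcnh2 encode the pore subunits of the slow and the rapid delayed rectifier potassium channels. Kcnq1 (ENSMUSG00000009545.14, chromosome 7, 143106362 to 143427042, plus strand) had a single site, in coding sequence of the last exon and 35 nt before the end of the stop codon. Its rank percentile was 57.1, near the middle of the list. Of the 16 exons of its transcript, 14 were shorter than 400 nt. The 51 DRACH motifs of this transcript gave 1 site (1.96%, 0.347 to 10.3%), against 5.77% of the DRACH motifs in all genes with a site. The interval holds that value, so a lower share in Kcnq1 was not shown at this number of motifs. The long non-coding RNA Kcnq1ot1 runs through this gene on the opposite strand, and sites were assigned by strand.

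Kcnh2 (ENSMUSG00000038319.14, chromosome 5, 24319589 to 24351604, minus strand) had 7 sites in 4 of its 15 exons. The 4 coding sites lay in internal exons 4, 6 and 7, which measure 450, 429 and 388 nt, and the other 3 lay in the 3′ UTR, at 19, 172 and 279 nt after the end of the stop codon. The site of exon 7 stood out by rank, with a percentile of 95.4 against 13.5 to 66.4 for the other sites, and was the gene's site in the 300 ng list. Of the 45 DRACH motifs in exons under 400 nt, this site was the only listed one (2.22%, 0.393 to 11.6%). In the exons of 400 nt or more, 6 of 26 motifs were listed (23.1%, 11.0 to 42.1%). A further Kcnh2 site lay in an intron, with a percentile of 0.3, and was not counted.

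Kcnd2 encodes a pore subunit of the fast transient outward potassium channel. The gene (ENSMUSG00000060882.5, chromosome 6, 21215503 to 21729805, plus strand) had 11 sites spread over both ends of the transcript. The long first exon of 1911 nt held 6 of them, 2 in the 5′ UTR and 4 in coding sequence, and the last exon held 4 sites in the 3′ UTR. Between these lay the gene's site of highest rank, in exon 5 of only 248 nt, with a percentile of 75.1. It was the shortest exon with a site among the 8 genes in the 1000 ng list. The other sites of Kcnd2 had percentiles from 5.3 to 67.1, and none of the 11 was in the 300, 100 or 50 ng list.

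Kcnj2 and Kcnj3 encode inward rectifier subunits, the first of the channel that holds the resting potential of ventricular muscle and the second of the channel opened by acetylcholine in the atrium. The coding sequence of Kcnj2 (ENSMUSG00000041695.2, chromosome 11, 111066164 to 111076821, plus strand) lies whole in a last exon of 5273 nt, which also held all 16 sites. They formed 3 groups, with 3 sites in the 5′ UTR, 7 in coding sequence and 6 in the 3′ UTR. Up to 169 nt after the end of the stop codon there were 15 sites, and a single site of low rank, with a percentile of 2.3, lay at 2288 nt. Of the DRACH motifs, 7 of 26 were listed in coding sequence (26.9%, 13.7 to 46.1%) and 6 of 69 in the 3′ UTR (8.70%, 4.05 to 17.7%). The motif AGACT made up 8 of its 16 sites.

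Kcnj3 (ENSMUSG00000026824.11, chromosome 2, 55435970 to 55598145, plus strand) had the most sites, and 15 of its 18 were in coding sequence. Exon 2, an internal exon of 1122 nt, held 6 coding sites, and the last exon of 3335 nt held 9 coding sites and 3 sites of the 3′ UTR. In coding sequence 13 of 35 DRACH motifs were listed (37.1%, 23.2 to 53.7%), against 3 of 66 in the 3′ UTR (4.55%, 1.56 to 12.5%), so the intervals did not overlap. The remaining 2 coding sites were at GGACG, which is not a DRACH sequence. Percentiles ran from 27.3 to 94.4 with a median of 77.8, and 4 sites ranked above the percentile of 90.

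Hcn2 encodes a pacemaker channel. In this gene (ENSMUSG00000020331.9, chromosome 10, 79716634 to 79736108, plus strand) 3 sites lay within 30 nt of each other in exon 2 of 424 nt, with percentiles of 7.9, 29.9 and 31.1. The other 5 were in the last exon of 1251 nt, and 2 of these were coding sites, at 76 and 34 nt before the end of the stop codon, with percentiles of 94.1 and 58.7. The 6 exons without a site included the first exon of 586 nt, so a long exon did not by itself carry a listed site.

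Gja1 encodes the main connexin of ventricular muscle. The gene (ENSMUSG00000050953.10, chromosome 10, 56377330 to 56402513, plus strand) had its 16 sites in the last exon of 2882 nt, 9 in coding sequence and 7 in the 3′ UTR. It held the highest-ranked sites of the 8 genes. The leading site ranked 113th of 46421 and another ranked 126th, and the median percentile of the gene was 97.2. At 3 sites the percentile was low for this gene, 62.9, 39.6 and 27.4, and the last of these was at the first base after the stop codon. Of 20 coding DRACH motifs 8 were listed (40.0%, 21.9 to 61.3%). The leading site and a site 6 nt before it share most of their windows, as the printed sequences show. A site at 56391517, with a percentile of 36.0, was not counted. It lay within the gene but outside its annotated exons, beyond the last exon of the transcript used.

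**Figure D2:**
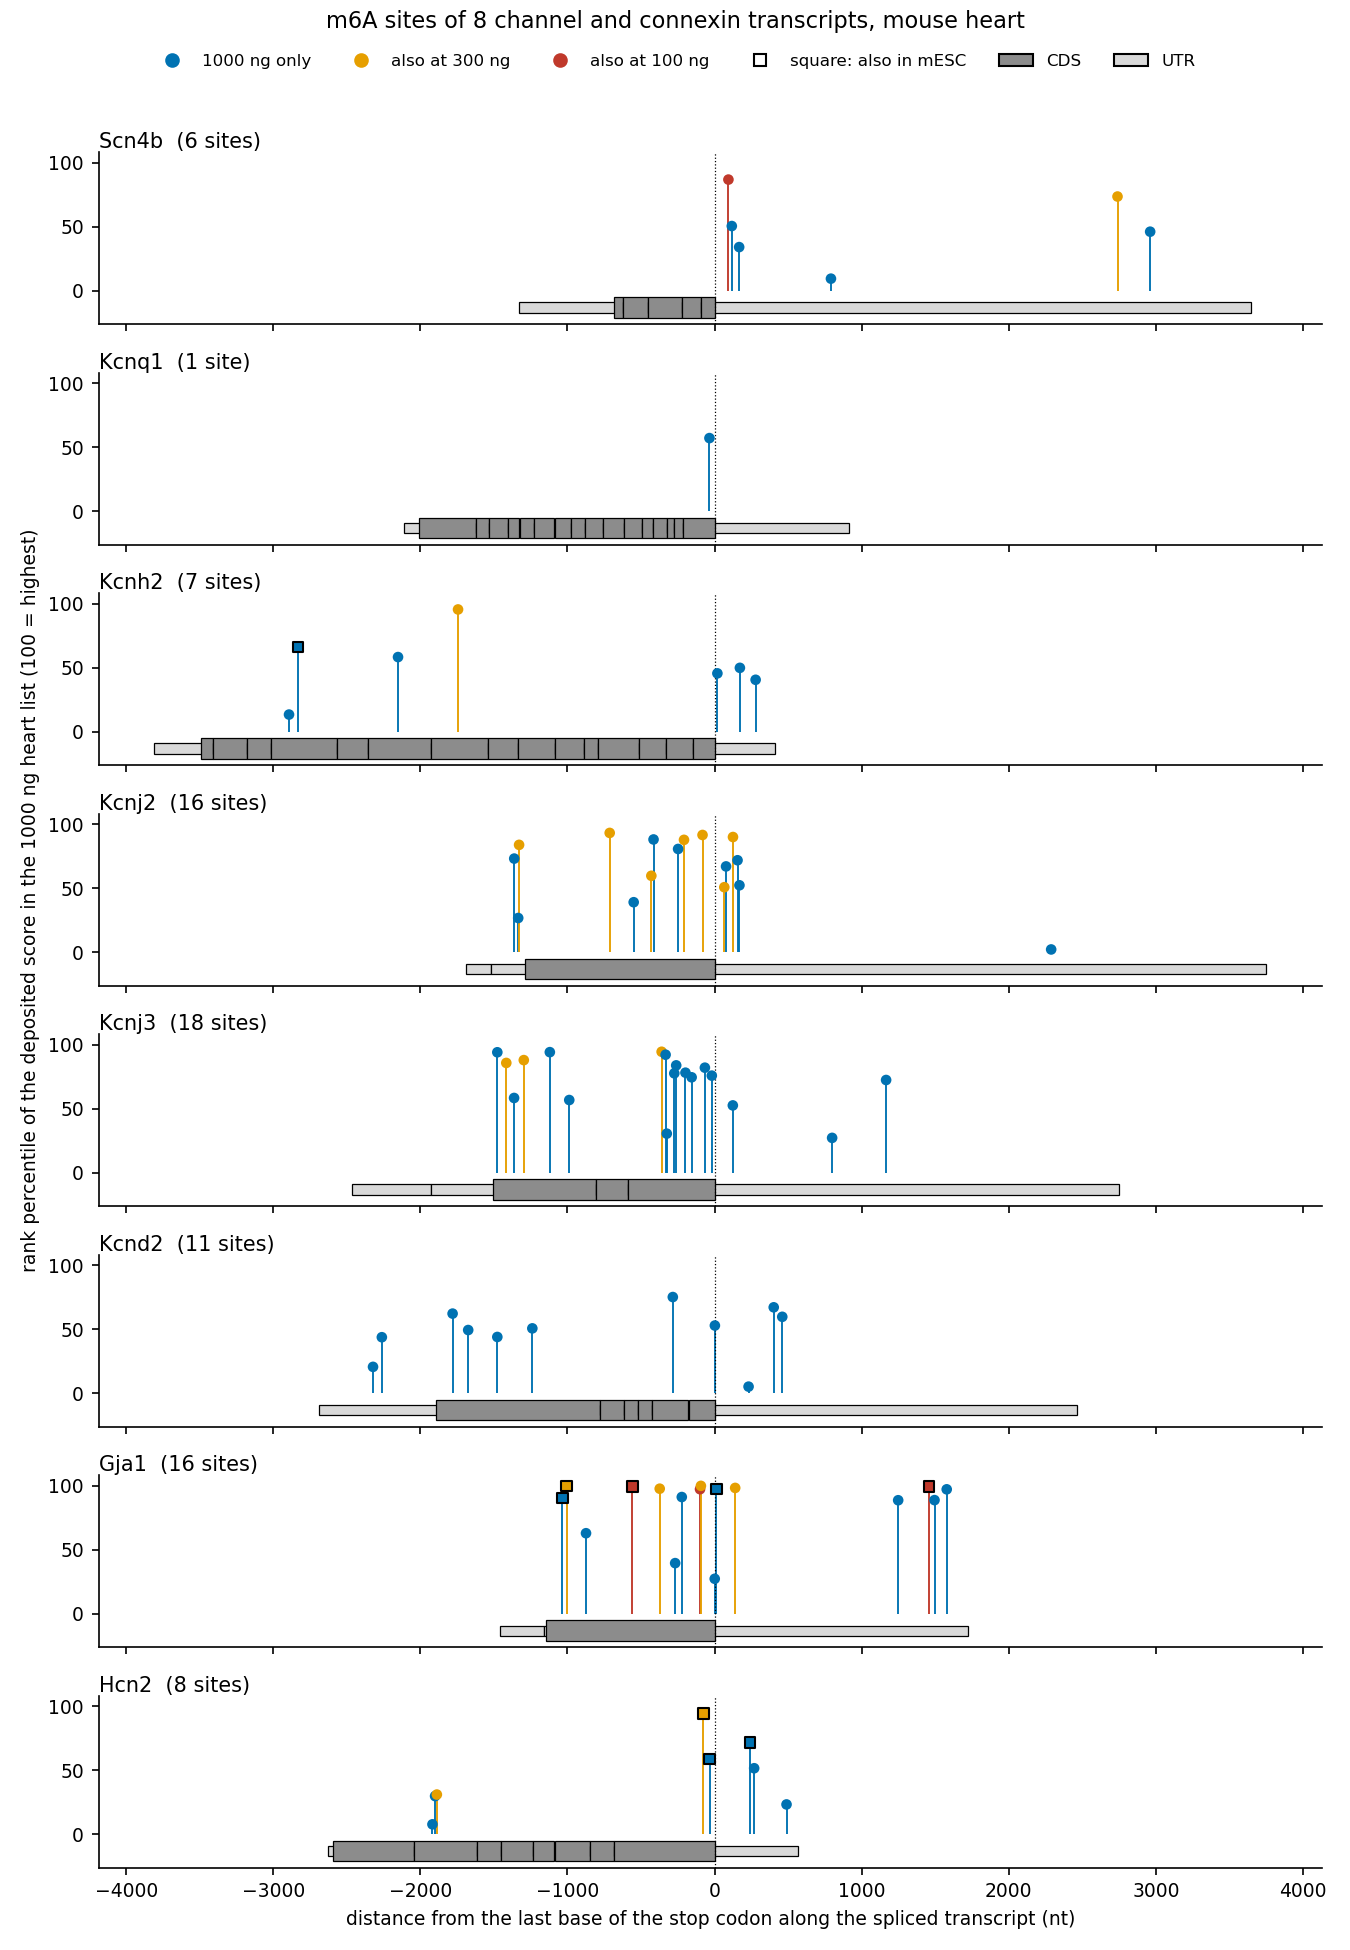
Sites of the 1000 ng heart list along the spliced transcript of each gene. The horizontal axis is the distance in nt from the last base of the stop codon (dotted line), the vertical axis the rank percentile of the deposited score, and boxes are exons, with coding sequence tall and dark. Colours show the smallest input in which a site was listed, and squares mark sites also in the mESC list. Sites of Scn4b, Kcnj2, Gja1 and Kcnq1 stand in the last exon only.

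Over the 8 genes, the sites were placed much as those of the whole list. Of the 83 sites, 46 were coding (55.4%, 44.7 to 65.6%), 32 in 3′ UTRs (38.6%, 28.8 to 49.3%) and 5 in 5′ UTRs (6.02%, 2.6 to 13.3%). Over all 42868 sites placed in coding transcripts the shares were 48.1%, 49.8% and 2.13%. The share in 3′ UTRs was lower than in all genes by slightly more than its counting interval, but this rested on Kcnj3: without that gene it was 44.6% (33.2 to 56.7%), and coding sites made up 47.7%. The share in 5′ UTRs was higher, through the 3 sites of Kcnj2 and the 2 of Kcnd2. Within 200 nt of the stop codon lay 25 sites (30.1%, 21.3 to 40.7%), close to the 28.5% of all sites. The region of a site and its 21-nt sequence are among the features that m6Aboost uses, so shares by region and motif are partly set by the classifier. Sites of 1 transcript share its level and are not independent of each other.

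Nearly all sites lay in long exons. In exons of 400 nt or more lay 81 of the 83 sites (97.6%, 91.6 to 99.3%), compared with 94.4% of all sites. The exceptions were the sites of Kcnh2 exon 7 and Kcnd2 exon 5, both the highest-ranked of their gene. Among the 58 exons of the 8 transcripts, 41 were shorter than 400 nt and 15 held a site. The longest exon without a site was the first exon of Scn4b with 708 nt. Counted per motif, 77 of 538 DRACH sequences in exons of 400 nt or more were listed (14.3%, 11.6 to 17.5%) and 2 of 129 in shorter exons (1.55%, 0.426 to 5.48%). Over all genes with a site the same shares were 8.38% and 0.930%.

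Sites also kept away from exon junctions. None of the 144 DRACH motifs within 100 nt of a junction was listed, which allows a share of up to 2.6%, while over all genes 1.37% of such motifs were listed. From 100 to below 200 nt 16 of 53 motifs were listed (30.2%, 19.5 to 43.5%), against 13% over all genes, and from 200 to below 400 nt 11 of 50 (22%, 12.8 to 35.2%), against 17.2%. At 400 nt or more the share was 12.4% (9.57 to 15.9%), against 6.08%. The site closest to a junction was that of Kcnd2 exon 5, at 106 nt. The first site in reach of a junction stood at 122 nt in Hcn2, 123 nt in Kcnh2, 127 nt in Gja1, 159 nt in Kcnj2, 180 nt in Kcnq1, 184 nt in Kcnj3 and 187 nt in Scn4b.

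**Figure D3:**
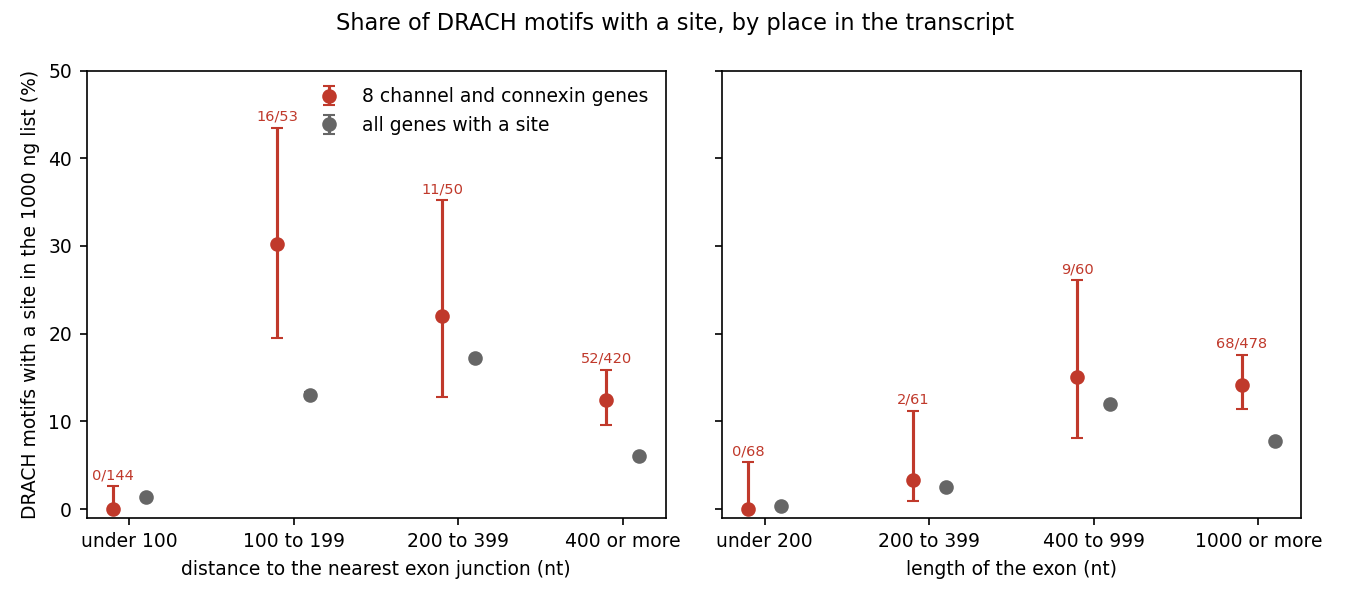
Percent of DRACH motifs with a site in the 1000 ng heart list (vertical axis) by distance to the nearest exon junction (left) and by exon length (right), for the 8 genes and for all genes with a site. Bars are 95% Wilson intervals and numbers are sites over motifs. Of the 144 motifs under 100 nt from a junction none is listed, whereas 16 of 53 are at 100 to below 200 nt.

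The 300 ng list held the only sites of these genes nearer than 100 nt to a junction. These were 2 coding sites of Kcnj3 that the 1000 ng list lacks, the first in exon 2 at 85 nt from the junction and the second in exon 3 of 217 nt at 47 nt. The first was at GGACG and the second at GAACT, and their percentiles in the 300 ng list were 18.8 and 54.2. With them, sites of Kcnj3 were listed in 3 of its exons.

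DRACH sequences made up 79 of the 83 sites (95.2%, 88.3 to 98.1%), near the 92.9% of all exon sites. The 4 others were the 2 GGACG sites of Kcnj3 and a GTACT site each in Gja1 and Hcn2. The commonest sequences were AGACT at 15 sites, GGACA at 12 and GGACT at 11. In the whole list GGACT led with 21.1% of sites and AGACT had 12.8%, compared with 13.3% and 18.1% here. Kcnj2 alone supplied 8 of the 15 AGACT sites. Of the coding sites, 29 of 46 had the methylated A at the second base of a codon (63.0%, 48.6 to 75.5%), against 48.5% of all coding sites, and 6 had it at the first base (13%, 6.12 to 25.7%), against 24.4%.

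By rank, the sites of the 8 genes stood above the middle of the 1000 ng list. The median percentile was 67.1 (order-statistic interval 58.3 to 77.6), against 50.6 for all exon sites, and 60 of the 83 sites (72.3%, 61.8 to 80.8%) ranked above the median of the list. Without Gja1 the median was 59.7 (52.3 to 72.4) and 46 of 67 sites (68.7%) ranked above the list's median. The median percentile of single genes was 97.2 in Gja1, 77.8 in Kcnj3 and 72.4 in Kcnj2. In the other genes it was near or below the value of all exon sites. It was 41.4 in Hcn2, 48.3 in Scn4b, 49.9 in Kcnh2 and 50.7 in Kcnd2, and the single site of Kcnq1 had 57.1. The highest score is shared by 61 sites of the list, none of them in these genes.

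The lower inputs kept a part of these sites, and mostly those of high rank. The heart libraries also differed in read depth, and the part of depth in this was not tested. In the 300 ng list 21 of the 83 sites were found again at the same position (25.3%, 17.2 to 35.6%), against 18.1% of all exon sites, a value inside the interval. Read from the other side, 21 of the 23 sites of the 300 ng list were in the 1000 ng list (91.3%), near the 93.5% of all sites of that list. Recovery rose with rank: 1 of 23 sites below the percentile of 50 was found again, 3 of 25 between 50 and 75, 6 of 16 between 75 and 90, and 11 of 19 above 90. In the same classes 3.50%, 12.7%, 37.4% and 73.7% of all exon sites were found again. The share of 57.9% above 90 had an interval from 36.3 to 76.9%, which holds the value of all sites.

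By gene, 7 of 16 sites of Kcnj2 were found again at 300 ng, 6 of 16 of Gja1, 3 of 18 of Kcnj3, 2 of 6 of Scn4b, 2 of 8 of Hcn2 and 1 of 7 of Kcnh2. Among the sites of Hcn2 was 1 of low rank in exon 2, with a percentile of 31.1. No site of Kcnq1 or Kcnd2 was in a list below 1000 ng. At 100 ng only 4 sites remained (4.82%, 1.89 to 11.7%), against 2.33% of all exon sites: the first site of Scn4b after the stop codon and 3 sites of Gja1. The Gja1 site at 56388596 was in the 100 ng list but not in the 300 ng list, whereas the site 6 nt further on was in the 300 ng list but not in the 100 ng list. At 50 ng none of the 83 sites was listed, which allows a share of up to 4.42%, while 0.513% of all exon sites were, so that no absence can be read from this list.

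Few of these sites were shared with mESCs. The mESC list held 9 of the 83 sites (10.8%, 5.81 to 19.3%), against 33.7% of all exon sites of the 1000 ng list, and the interval lies below that value. They were 5 sites of Gja1, 3 of Hcn2 and 1 of Kcnh2. Conversely, all 9 mESC sites of the 8 genes were in the heart list (100%, 70.1 to 100%), against 59.7% of all mESC exon sites. Scn4b, Kcnq1, Kcnj2, Kcnj3 and Kcnd2 had no site in mESCs. Their counts in the WT mESC libraries lay between 1 and 23, while those of Gja1, Hcn2 and Kcnh2 lay between 262 and 1565, and the part of RNA level in this sharing was not tested. The Gja1 site at 56390153 in the 3′ UTR was high in both, with percentiles of 99.5 in heart and 97.6 in mESCs.

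The heart origin of the lists was checked with markers, bearing in mind that a gene without sites may still be expressed. Of 10 cardiomyocyte genes 6 had sites in the 1000 ng list, led by Ttn with 195 and Ryr2 with 23, whereas Tnni3, Actc1, Nppa and Myl2 had none. No cardiomyocyte gene had a site in mESCs. All 6 fibroblast and all 4 endothelial genes also had sites in heart, 3 of 4 smooth muscle genes, 2 of 3 immune genes and 0 of 4 neuronal genes. In bulk tissue the cells that carry a site cannot be told apart. Of 8 stem cell genes 2 had sites in heart (Klf4 and Esrrb) and 7 in mESCs.

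Other channel and connexin genes likewise had most sites in long exons. Of 53 further genes, 26 had a site in the 1000 ng list, with 244 sites in all, and 239 of these lay in exons of 400 nt or more. By region 120 of the 244 were in 3′ UTRs, beside 32 of 83 in the 8 genes, and whether these shares differ was not tested. Among those with many sites were Kcnj12 and Kcnk3 (17 each), an inward rectifier and a background potassium channel, and Scn4a (15), a sodium channel of skeletal muscle. Kcnj5, the partner of Kcnj3 in the acetylcholine-gated channel, had 14, Gja3, Gjc1 and Kcnj8 had 12 each, and Gja4, Kcna5, Kcnj11 and Kcnv2 had 11 each. The median percentile of Kcnk3 was 92.7, beside 97.2 in Gja1. At 100 ng Kcnk3 had 2 sites, and 1 of its sites was listed at 50 ng. Of the auxiliary potassium channel subunits 2 of 10 genes had a site and of the calcium-activated channels 1 of 5.

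RNA-seq of mESCs was used to ask how the same genes behaved when Mettl3 was knocked out. Mettl3 itself had 560, 698 and 612 counts in the WT libraries against 462, 669 and 457 in the KO libraries. Its log2 fold change was −0.50 (SE 0.14), the edgeR adjusted p was 0.0134, and this became 0.00281 once replicate numbers were blocked. Reads of the gene were thus still counted in the KO, and gene counts do not show which part of it was deleted. With a threshold of 0.01 on the Benjamini-Hochberg adjusted p of the edgeR quasi-likelihood test, 29.7% of the 15731 tested genes changed, 17.1% higher and 12.6% lower in KO. These were 2687 higher and 1982 lower genes, or 2937 and 1199 if libraries were scaled by their size alone. This fit left out the replicate number, and with it as a block 6837 genes passed. Of the 8 genes 6 passed the filter on low counts, and 3 of these changed, Gja1 higher and Kcnh2 and Kcnj3 lower in KO. The labels do not say that replicates came from separate cultures, so p-values measure only the spread between these libraries, and with a background of 29.7% this count says nothing particular about the 8 genes.

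Gja1 had 1175, 1427 and 1565 counts in the WT libraries against 2654, 2296 and 3131 in the KO libraries. As CPM, which are counts scaled to a common library size with TMM factors, its mean was 61.2 ± 11 (SD, n = 3) in the WT group against 99.5 ± 19.8 in the KO group, and every KO library was above every WT library. This was a log2 fold change of 0.70 (SE 0.17, edgeR adjusted p 0.00688). The call was lost when replicate 1 or 2 of the WT group was left out, and likewise replicate 1 or 3 of the KO group (edgeR adjusted p between 0.0231 and 0.0383). Since Gja1 is also a fibroblast gene, the fibroblast markers were read beside it. The summed level ran from 2.08 to 3.07 CPM over the WT libraries, from 3.34 to 4.45 CPM over the KO libraries, 4 of the 6 were below 0.3 CPM in both groups, and neither of the 2 tested passed the threshold. Those were Col1a1, with a mean of 1.15 CPM in the WT group against 0.657 CPM in the KO group, and Pdgfra, with 1.34 against 2.71 CPM (edgeR adjusted p 0.0737 and 0.0124). Other marker lists also differed between the groups. Of 8 stem cell genes 2 were lower in KO, Dppa5a (log2 fold change −1.68) and Tdgf1 (−1.98), and the summed level of the list fell from 4300 to 4610 CPM over the WT libraries to 3110 to 3180 CPM over the KO libraries. Of 10 cardiomyocyte genes 5 were tested and Ttn was higher (1.84), and of 4 endothelial genes Tek (1.15) and Cdh5 (0.0127 against 0.416 CPM) were higher. Cdh5 entered the test through the KO group, where it was high, so nothing is read from its call. Of 4 smooth muscle genes 2 were tested, and neither passed. The list's summed level ran from 1.03 to 2.27 CPM over the WT libraries and from 2.32 to 24.1 CPM over the KO libraries. Acta2, which was not tested, had a mean of 0.0472 CPM in the WT group against 4.65 CPM in the KO group. The part of these markers in the changes of the 8 genes was not tested.

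Kcnh2 had 370, 438 and 322 counts in the WT libraries against 234, 337 and 279 in the KO libraries. Its mean was 16.4 ± 1.14 CPM (SD, n = 3) in the WT group against 10.3 ± 1.03 CPM in the KO group, without overlap. This was a log2 fold change of −0.67 (SE 0.15, edgeR adjusted p 0.0041). With library size as the only scaling the adjusted p was 0.0263, and it lay between 0.0102 and 0.0275 when any of the same libraries as for Gja1 was left out, so that each of these changes ended the call.

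Kcnj3 was low in mESCs and nearly absent from the KO libraries. It had 15, 16 and 16 counts in the WT libraries against 1, 0 and 1 in the KO libraries, and it passed the filter through the WT group. The summed counts were 47 and 2, a ratio of 28 after scaling to the library sizes with TMM factors, with an exact counting interval from 7.34 to 238 that leaves out the spread between libraries. The adjusted p was 0.000236 by edgeR. Since a gene this low enters the test only through its high group, it could not be tested where all libraries had to reach 10 counts, and with no filter its adjusted p was 1.32e-08 by edgeR.

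Hcn2, the third gene with sites in mESCs, had 284, 360 and 262 counts in the WT libraries against 238, 306 and 218 in the KO libraries, or 13.2 ± 0.693 and 9.27 ± 1.15 CPM (SD, n = 3). The groups did not overlap in CPM, but the adjusted p of 0.0241 by edgeR did not pass (log2 fold change −0.50, SE 0.16). With replicate numbers blocked it was 0.00801. Scn4b had only 9, 10 and 3 counts in the WT libraries against 15, 33 and 34 in the KO libraries (log2 fold change 1.62, SE 0.45), and it passed the filter through the KO group. Its edgeR adjusted p was 0.0137, or 0.00503 with replicate numbers blocked. For Kcnq1 the groups overlapped, with 4, 23 and 8 counts in the WT libraries against 13, 17 and 15 in the KO libraries (edgeR adjusted p 0.826).

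The last pair of genes was not tested. Kcnj2 had 4, 1 and 3 counts in the WT libraries against 9, 6 and 11 in the KO libraries, and Kcnd2 had 2, 1 and 1 against 0, 2 and 2. Levels this low give no measure of change in mESCs for genes that had 16 and 11 sites in heart. Among the 6 tested genes the ranges of WT and KO were apart in 5, against 56.1% of all genes tested, but Scn4b and Kcnj3 entered through their high group, so nothing is read from this count. The genes with sites in mESCs moved in both directions, Gja1 to a higher level and Kcnh2 to a lower one.

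**Figure D4:**
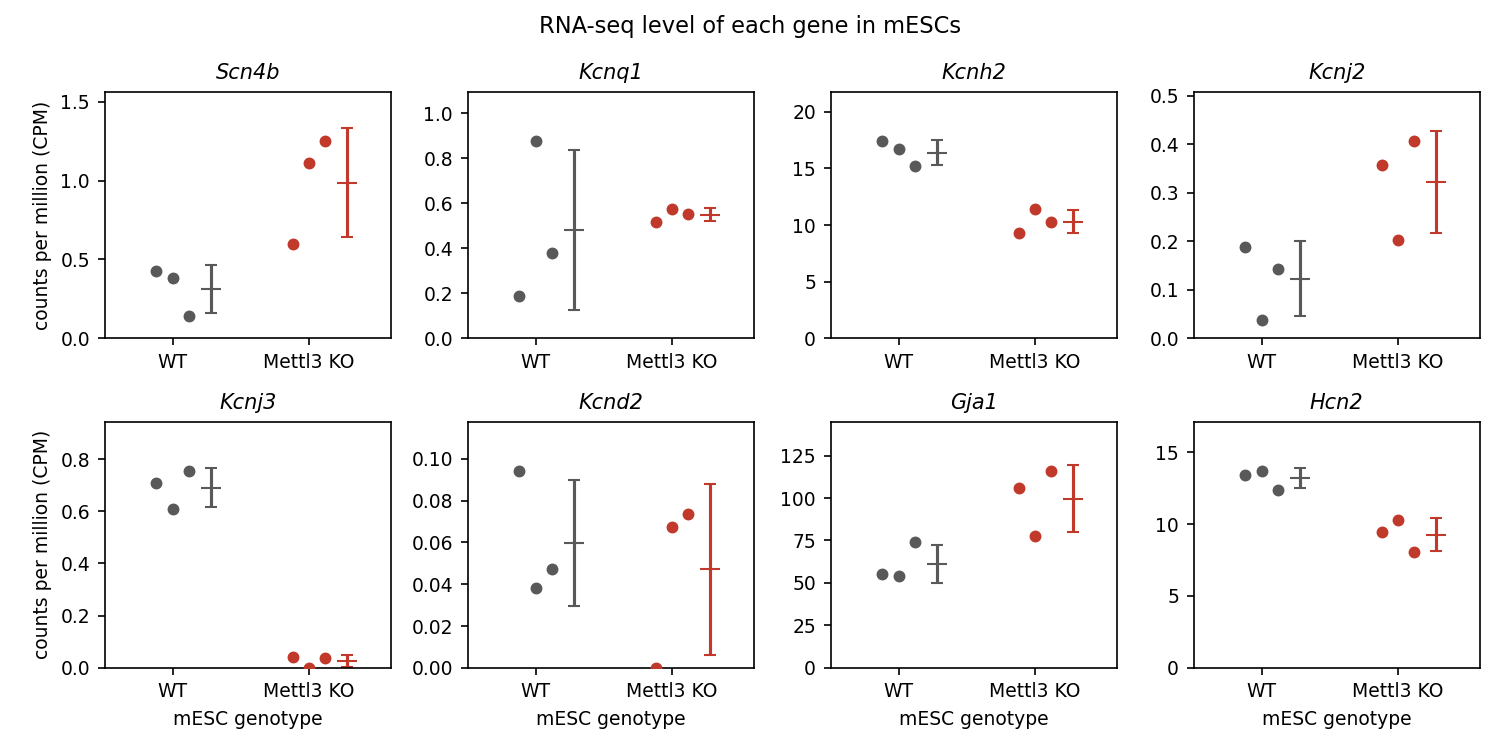
RNA-seq level in CPM (vertical axis, its own scale from 0 for each gene) of the 8 genes in WT and Mettl3 KO mESCs (horizontal axis). Points are the 3 libraries of each group and the bar beside them is the mean with its SD. The KO points of Gja1, Scn4b and Kcnj2 lie above and those of Kcnh2, Kcnj3 and Hcn2 below all WT points. Counts of Scn4b, Kcnj2 and Kcnj3 are low.

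Of the 53 further channel and connexin genes 30 were tested, and 8 were higher and 2 lower in KO (10 of 30, beside 29.7% of all genes). The higher genes included Scn2b, an auxiliary subunit of sodium channels (log2 fold change 1.1, SE 0.25), and the potassium channel gene Kcnk1 (0.92, SE 0.16). They also included 3 potassium channel genes of low counts that entered the test through the KO group, where they were high. Kcnd3 had 5, 4 and 10 counts in the WT libraries against 40, 46 and 51 in the KO libraries, Kcnj11 had 10, 22 and 7 against 36, 55 and 36, and Kcnn4 had 6, 7 and 9 against 29, 23 and 39. The count of 10 genes includes such genes and is no support for a change of the lists. Lower were Kcnip2, an auxiliary subunit of the Kcnd channels (−1.90, SE 0.27), and Kcnn1 (−1.13, SE 0.23). Adjusted p for these 7 genes lay between 0.000347 and 0.00879 by edgeR. Of the 7 only Kcnk1 had sites in the mESC list, 4 in all. With replicate numbers blocked, Kcnc1 (edgeR adjusted p 0.00635), Kcnj4 (0.00597), Kcnj12 (0.00529) and Gja4 (0.00879) were called as well, all higher in KO. Kcnc1 had 8, 8 and 5 counts in the WT libraries against 20, 40 and 12 in the KO libraries. It too entered the test through the KO group, so nothing is read from its call.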

How the data were processed

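The authors deposited site lists in which each m6A site carries a score, and, for RNA-seq, counts of reads per gene. Per the submitters' notes and the study's methods, reads were aligned with STAR (2.7.3a or 2.6.1b) to GRCm38, miCLIP2 reads were deduplicated with UMI-tools 1.0.0, peaks were classified by m6Aboost, and RNA-seq reads were counted with HTSeq 0.12.4. The heart score as deposited exceeds the range of an m6Aboost probability and its scale is not given in the sources used here, so it served only for ranks. The unit of the lower heart inputs is µg in the sample titles but ng in list names and methods, and ng was used.

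Sites were assigned by strand to exons of 1 gene (GENCODE M21, where the study names M23) and placed on the longest coding transcript. Sequences come from the RefSeq copy of GRCm38.p6. Python 3.11.15, pandas 2.3.3, scipy 1.17.1, pysam 0.24.0 and matplotlib 3.10.9 were used. Of 54 further channel genes 53 matched a symbol, and values of some of them are not reported here.

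Deposited counts, 22746733 to 27254245 per library on genes, were tested with edgeR 4.0.16 (TMM, quasi-likelihood test) in R 4.3.3, after a filter on low counts and a check on simulated data. DESeq2 1.42.0 served as an alternative. Lines that name no gene were left out (no feature 17.6 to 22.6%, not unique 13.9 to 15.2%). Deviations from the group means correlated between samples of the same replicate number (r = 0.122, 0.464 and 0.303). The value of 0.122, for replicate number 1, was close to the 0.11 of WT replicate 3 with KO replicate 1. The main fit left the replicate number out, and a fit with it as a block was an alternative. The 8 genes, the further lists and the naming rule (the 8 genes, the 10 further genes with the most sites and their ties, and further genes past the threshold) were chosen with earlier results of these data known.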

Additional observations from a re-analysis of the deposited data

How the results depend on the processing

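Among the settings that did not leave out a library, 61 results were kept, 17 were not, and none was reversed. Kept means the same direction and side of the threshold for fold changes of single genes. For numbers of genes it means a similar size only, so 6837 genes with the replicate block counted as kept beside 4669. Shares and site numbers have neither direction nor threshold. Shares moved with their own definition: 18.1% of the sites of the 8 genes lay within 100 nt and 48.2% within 400 nt of the stop codon, 100% lay in exons of 200 nt or more and 86.7% in exons of 1000 nt or more, and 83.1% were at RRACH. Of the 8 genes and the 53 further genes together, 13 passed the RNA-seq threshold; 8 did with at least 10 counts in every library, 20 with an adjusted p of 0.05, and 7 to 16 when 1 library was left out (8 without WT replicate 1 or KO replicate 1, 7 without KO replicate 3). Over all genes 4669 passed, 7336 with an adjusted p of 0.05, and 2761 to 5412 when 1 library was left out (3108 when it was WT replicate 1, 2761 for KO replicate 1 and 3109 for KO replicate 3). The log2 fold change of Kcnq1 ran from -0.22 to 0.93, negative without WT replicate 1 or WT replicate 3. With the replicate block 6837 genes and 19 of the listed genes passed, and it changed no call among these beyond those named. DESeq2 called 5437 genes and 14 listed genes, and no filter 6406 and 16. When only library size was used for scaling, the median over tested genes shifted to 0.085 from -0.017 (log2), with 4136 genes and 11 listed genes passing. Read depth was not taken into account for the heart lists, so a site missing from a lower input cannot be read as unmethylated.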
